A study of Homo sapiens with 6 samples.

Results

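SUSD1, PLCB1, PTPMT1, MGAT4A, CYP27C1, TAPT1, NRBF2, STMN1, C12orf57 and CALU are 10 genes that read higher with both siRNAs against PPP2R2A than with a scramble siRNA in RT-112 cells. They were chosen by that outcome. The brightest probe set of each was called higher in both comparisons with scramble, and 19 of 12735 genes tested met that rule. The 10 are a part of those 19, and others that met it, IFI44L, MET, BANF1 and BOD1 among them, are not in this group. Every probe set whose single symbol is one of the 10 genes was followed, 27 of 41097. RT-112 cells derive from a human bladder tumour. The labels name 3 groups, siPPP2R2A_1 (here siRNA 1), siPPP2R2A_2 (siRNA 2) and scramble, each measured on an array A and an array B. All 6 samples received 50 nM siRNA with Lipofectamine RNAiMAX, were transfected again after 24 h and were harvested 24 h later. The series calls the arrays technical duplicates, so every p-value measures only the spread between duplicates. Values are signal intensities per probe set, and levels of different probe sets cannot be set against each other. In bulk RNA, fewer cells of a kind and less RNA per cell cannot be told apart.

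PPP2R2A encodes a regulatory B subunit of protein phosphatase 2A, a trimeric enzyme that removes phosphate from serine and threonine residues and takes its substrate choice from that subunit. Small interfering RNAs guide the RNA interference machinery to a matching transcript. They can also lower other transcripts that pair with a short stretch at the guide's start, which is why a scramble siRNA, with no intended target, serves as control. A scramble siRNA can itself have such unintended targets. A transcript that reads higher with 2 different siRNAs than with 1 shared scramble siRNA may have risen with both, fallen with scramble, or done some of each. All 6 arrays carried one of the 3 siRNAs and arrays of untransfected cells were not analysed here, so these readings cannot be told apart.

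The 10 genes have no single pathway in common, which describes these 10 and not every gene that met the rule. PLCB1 is a phospholipase C that Gq-coupled receptors activate, PTPMT1 a mitochondrial phosphatase of cardiolipin synthesis, and CYP27C1 a cytochrome P450 that acts on vitamin A. MGAT4A is a Golgi enzyme that adds branches to N-glycans, and CALU (calumenin) a calcium-binding protein of the secretory pathway. NRBF2 is a subunit of the lipid kinase complex that starts autophagosomes, STMN1 (stathmin) a protein that destabilises microtubules, and TAPT1 a membrane protein found at the base of cilia. SUSD1 is a membrane protein with sushi domains, and C12orf57 a small protein needed for brain and eye development.

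Promoter sequences are shown for 3 of the genes as examples. The 10 genes were chosen by their common rise, so their moving together is in itself no ground to expect shared elements. RefSeq promoter windows of GRCh38.p14 matched 7 of the 10 genes, and MGAT4A, PLCB1 and TAPT1 had no entry. The 250 bases before the first listed start of each gene were searched on both strands for CCAAT (the NF-Y element), TGACGTCA (the cyclic AMP response element), CACGTG (an E-box), GGGCGG (a GC box) and TATAAA (the TATA box). None of these letters contains another of them. The motifs were chosen with the results known. In the windows below, printed 5' to 3' on the gene's strand, capitals mark CCAAT, TGACGTCA and CACGTG on either strand. NRBF2 lies at chr10:63133078-63133327 on the plus strand, CALU at chr7:128739109-128739358 on the plus strand and STMN1 at chr1:25906420-25906669 on the minus strand.
NRBF2: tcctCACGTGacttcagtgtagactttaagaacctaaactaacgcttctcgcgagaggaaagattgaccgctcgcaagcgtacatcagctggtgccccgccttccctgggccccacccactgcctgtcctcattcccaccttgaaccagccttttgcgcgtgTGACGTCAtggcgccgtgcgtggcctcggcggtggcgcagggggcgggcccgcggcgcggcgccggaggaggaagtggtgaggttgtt
CALU: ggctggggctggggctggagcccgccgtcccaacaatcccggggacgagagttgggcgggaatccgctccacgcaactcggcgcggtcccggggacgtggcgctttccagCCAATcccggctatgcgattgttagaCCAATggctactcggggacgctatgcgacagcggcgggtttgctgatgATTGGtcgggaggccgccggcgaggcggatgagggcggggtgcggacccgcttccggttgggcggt
STMN1: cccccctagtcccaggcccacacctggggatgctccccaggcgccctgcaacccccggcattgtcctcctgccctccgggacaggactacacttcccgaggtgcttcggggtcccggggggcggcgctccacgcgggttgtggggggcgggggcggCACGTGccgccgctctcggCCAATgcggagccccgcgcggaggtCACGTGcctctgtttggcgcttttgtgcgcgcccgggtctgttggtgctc

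NRBF2 was the 1 gene of the 7 with TGACGTCA, which 1.77% of 27305 genes with a window hold. CALU held 3 copies of CCAAT, STMN1 held 1, and C12orf57 had it as well, making 3 of 7 genes against 33.0% of all windows. STMN1 held CACGTG at 2 places, and with NRBF2 and PTPMT1 it made 3 of 7 genes, against 6.49% of all windows. GGGCGG was present in 4 of 7 (42.3% of all windows) and TATAAA in 1 of 7, C12orf57 (11.1%). No one of the 5 motifs was present in all 7 windows. A match describes letters in a window, and no match says nothing about a factor.

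The targeted gene and the arrays were checked first. PPP2R2A read 336 and 397 with siRNA 1 and 510.0 and 533 with siRNA 2, against 1381 and 1589 with scramble, which left 24.7% and 35.1% of the scramble mean. Of the urothelial or epithelial markers, 9 of 10 had a probe set with 1 symbol, and these 9 read above the array median on all 6 arrays. Their summed signals were 140163 and 145287 with siRNA 1, 120055 and 127780 with siRNA 2, and 140947 and 145821 with scramble. Above the array median on all 6 arrays were 1 of 5 fibroblast, 2 of 3 endothelial and 0 of 4 leukocyte markers, while 3 fibroblast and 2 leukocyte markers were above it on no array. Their summed signals were 1088 to 1195, 318 to 368 and 217 to 303 with siRNA 1, and 1217 to 1250.0, 269 to 338 and 169 to 249 with siRNA 2. With scramble they were 1214 to 1248, 387 to 446 and 141 to 237. For ACTB, whose 3' signal over its 5' signal reflects how intact and evenly labelled the RNA was, that quotient was 6.52 and 7.82 with siRNA 1 and 7.47 and 12.4 with siRNA 2, against 5.43 and 5.94 with scramble. This quotient moved with the same groups as the 10 genes. The same quotient for GAPDH stayed near its scramble level. It was 1.001 and 1.020 with siRNA 1 and 1.002 and 0.943 with siRNA 2, against 1.004 and 1.004 with scramble. The part of either quotient in the values of the 10 genes was not tested.

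**Figure D1:**
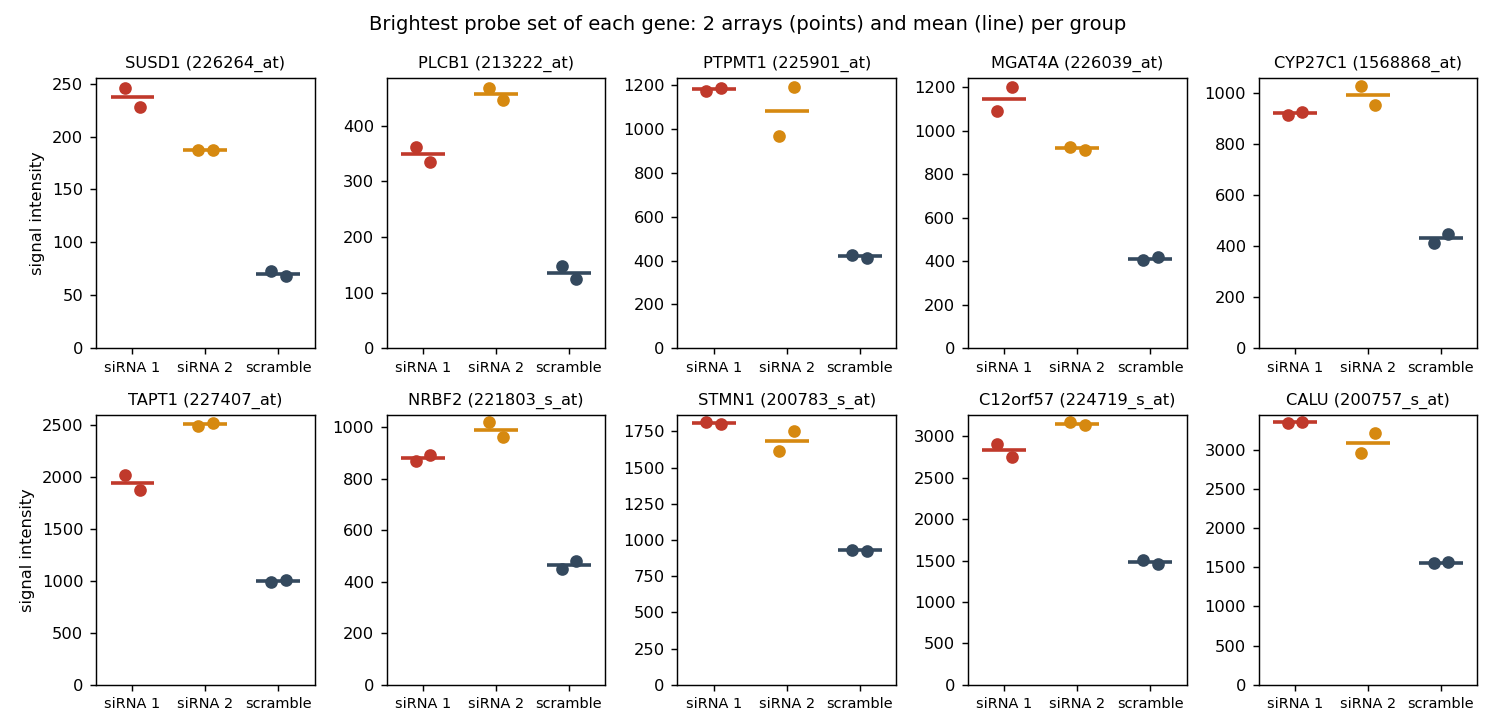
Signal intensity (linear axis from 0) of the brightest probe set of each of the 10 genes, with 1 point per array and a line at the mean of the 2 arrays of each group. In every panel the 4 siRNA 1 and siRNA 2 points lie above both scramble points, which the choice of the genes favours, and the order of siRNA 1 and siRNA 2 differs between genes.

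On these brightest probe sets every one of the 10 genes read higher on all 4 arrays of siRNA 1 and siRNA 2 than on both scramble arrays. Of all genes tested, 14.7% did so, and since the 10 were chosen on this contrast nothing is read from their count. The lowest of the 4 arrays stood 1.74 to 2.57 times above the higher scramble array. Mean signals were 1.89 to 3.37 times the scramble mean with siRNA 1 and 1.81 to 3.37 times with siRNA 2. On the log2(signal + 1) scale the changes ran from 0.92 to 1.74 with siRNA 1 (median 1.10) and from 0.86 to 1.75 with siRNA 2 (median 1.18), beside medians of 0.011 and 0.016 over all genes tested.

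Calls required a Benjamini-Hochberg adjusted p under 0.05 by limma, a linear model over all genes, together with at least a 1.5-fold change. With siRNA 1, 0.212% of the genes tested were called higher and 0.181% lower, with siRNA 2 0.44% and 0.157%, and 0.149% were called higher with both. The adjusted p-values that chose the 10 genes lay close to the threshold, from 0.0368 to 0.0489 with siRNA 1 and at 0.0461 for all 10 with siRNA 2. Ranked by the larger of its 2 adjusted p-values, the last gene inside the rule was SEL1L (0.0498, with log2 changes of 1.04 and 1.06), and the first outside was ADGRG3 (0.0526, with 2.22 and 1.16). Without any 1 of the 6 arrays limma called 0 of the 10 genes with both siRNAs, although all 10 stayed higher with both at an unadjusted p under 0.05. All 10 were called with both when the prior variance was allowed to follow intensity, a setting in which 0.856% of all genes tested were called higher with both.

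PLCB1 cleaves a membrane phosphoinositide into the messengers that release calcium and activate protein kinase C. Its probe set 213222_at read 362 and 335 with siRNA 1 and 468 and 447 with siRNA 2, against 148 and 124 with scramble. The log2 changes were 1.36 and 1.75, with a standard error of 0.12 for each. Both siRNA 2 arrays were higher than both siRNA 1 arrays. The other 2 PLCB1 probe sets, 215687_x_at and 211925_s_at, read between 5.82 and 55.1 on every array, below the array median everywhere, and carry no usable level.

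PTPMT1 removes phosphate from phosphatidylglycerophosphate inside mitochondria. On 225901_at it read 1173 and 1190.0 with siRNA 1 and 969 and 1193 with siRNA 2, against 426 and 413 with scramble. Its log2 changes were 1.49 and 1.36 (SE 0.12 each), and the arrays of the siRNAs overlapped. A second probe set, 229535_at, read 429.7 and 374 with siRNA 1 and 400.1 and 386 with siRNA 2, against 241 and 259 with scramble. Its log2 changes of 0.68 and 0.65 were smaller than those of the brighter probe set.

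CYP27C1 introduces a double bond into vitamin A, a step known from skin and, in fish, from the eye. Its 1 probe set, 1568868_at, read 914 and 926 with siRNA 1 and 1025.5 and 954 with siRNA 2, against 413 and 446 with scramble. This gave log2 changes of 1.10 and 1.20 (SE 0.088 each). With a single probe set there is no second reading of this gene on the array.

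MGAT4A starts one of the outer branches of complex N-glycans. Its probe set 226039_at read 1092 and 1200.4 with siRNA 1 and 926 and 911 with siRNA 2, against 406 and 417 with scramble. The log2 changes were 1.47 and 1.16 (SE 0.086 each), and both siRNA 1 arrays were above both siRNA 2 arrays. The probe sets of this gene disagreed in part. On 231283_at the signals were 89.6 and 120.1 with siRNA 1 and 83.9 and 84.9 with siRNA 2, against 45.7 and 48.9 with scramble. On 219797_at siRNA 1 read 169 and 231 and siRNA 2 read 124 and 123, against 139.7 and 132 with scramble. On that probe set, siRNA 2 lay below scramble (log2 change -0.14), and siRNA 1 above it (0.54).

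CALU carries EF-hand calcium-binding motifs and resides in the endoplasmic reticulum and Golgi. Its probe set 200757_s_at read 3346 and 3352 with siRNA 1 and 2959 and 3209.6 with siRNA 2, against 1549 and 1568 with scramble. This gave log2 changes of 1.10 and 0.98 (SE 0.082 each). CALU had 4 other probe sets, more than any other of the 10 genes above the array median, and 3 of these had all 4 arrays of siRNA 1 and siRNA 2 above both scramble arrays. The highest of them, 200755_s_at, read 1269 and 1189 with siRNA 1 and 1419 and 1262 with siRNA 2, against 642 and 466 with scramble. The exception was 214845_s_at, with 391 and 423 with siRNA 1 and 318 and 232 with siRNA 2, against 270.3 and 263 with scramble. There siRNA 2 straddled the scramble arrays (log2 change 0.025).

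NRBF2 binds the class III phosphatidylinositol kinase complex that contains ATG14. Its probe set 221803_s_at read 870.2 and 892 with siRNA 1 and 1019 and 963 with siRNA 2, against 450.3 and 483 with scramble, giving log2 changes of 0.92 and 1.09 (SE 0.085 each). A second probe set, 223650_s_at, read 772 and 756 with siRNA 1 and 737 and 878 with siRNA 2, against 454 and 374 with scramble. Its log2 changes of 0.89 and 0.96 were close to those of the first.

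STMN1 binds free tubulin and is held inactive by phosphorylation during mitosis. Its probe set 200783_s_at read 1818 and 1800.3 with siRNA 1 and 1613 and 1751 with siRNA 2, against 929 and 927 with scramble. Its log2 changes were 0.96 and 0.86 (SE 0.082 each), and the change with siRNA 2 was the smallest of the 10 genes. Its dim second probe set, 1552803_a_at, read 66.8 and 37.2 with siRNA 1 and 23.05 and 55.02 with siRNA 2, against 65.2 and 87.7 with scramble. Only the 87.7 was above its array's median. A probe set shared with MIR3917, 217714_x_at, was above the array median on all 6 arrays. Its log2 changes were 0.11 with siRNA 1 and 0.32 with siRNA 2, and the arrays of both overlapped those of scramble.

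TAPT1 is known from human skeletal disease and from work on the base of the primary cilium. Its probe set 227407_at read 2014 and 1873 with siRNA 1 and 2494 and 2518 with siRNA 2, against 985 and 1009 with scramble. The log2 changes were 0.96 and 1.33 (SE 0.081 each), with both siRNA 2 arrays above both siRNA 1 arrays. On 226735_at the signals were 345 and 258 with siRNA 1 and 288 and 296 with siRNA 2, against 94.7 and 173 with scramble, so that the siRNAs overlapped there. On 238798_at siRNA 1 read 75.1 and 89.3 and siRNA 2 read 111 and 122, against 54.2 and 76.2 with scramble, and siRNA 1 overlapped scramble. A further 3 TAPT1 probe sets read below the array median on every array.

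SUSD1 had the largest change of the 10 genes with siRNA 1. Its 1 probe set, 226264_at, read 246 and 228 with siRNA 1 and 188 and 187 with siRNA 2, against 72.9 and 67.8 with scramble. The log2 changes were 1.74 and 1.40 (SE 0.087 each). The scramble arrays stood at about their medians of 70.9 and 76.2, the filter level, so the size of this change rests on a dim scramble signal. C12orf57 likewise had 1 probe set. This probe set, 224719_s_at, read 2909 and 2753 with siRNA 1 and 3171 and 3139 with siRNA 2, against 1512 and 1464 with scramble, with log2 changes of 0.93 and 1.08 (SE 0.079 each).

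Across the 10 genes, 3 had 1 probe set and 7 had several. Of the 17 probe sets that were not the brightest, 10 passed the filter, in 5 genes. These 10 give a second reading of the same RNA on the same arrays and not an independent test. With both siRNAs 9 of them were above scramble, 7 had all 4 arrays above both scramble arrays, and 7 were at least 1.5-fold higher with both. The exception in direction was 219797_at of MGAT4A. Among the 10, 231283_at of MGAT4A and 238798_at of TAPT1 passed the filter only on the 4 arrays of siRNA 1 and siRNA 2. The filter thus favoured their rise, and nothing is read from the counts. The same counts over all probe sets are not given here. A further 3 probe sets carry a second symbol beside PTPMT1 or STMN1 and entered none of these counts. The other 7 probe sets read below the array median on all arrays or all but 1, and 0 of them had all 4 arrays of siRNA 1 and siRNA 2 above both scramble arrays. In 1 of the 7 all 4 lay below: 242318_at of TAPT1 read 31.8 and 2.63 with siRNA 1 and 14.0 and 4.21 with siRNA 2, against 41.6 and 32.1 with scramble, under the array median throughout. When all probe sets of a gene were averaged, limma called 0 of the 10 genes with both siRNAs, 7 were higher with both at an unadjusted p under 0.05, and STMN1 turned to -0.10 with siRNA 2.

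**Figure D2:**
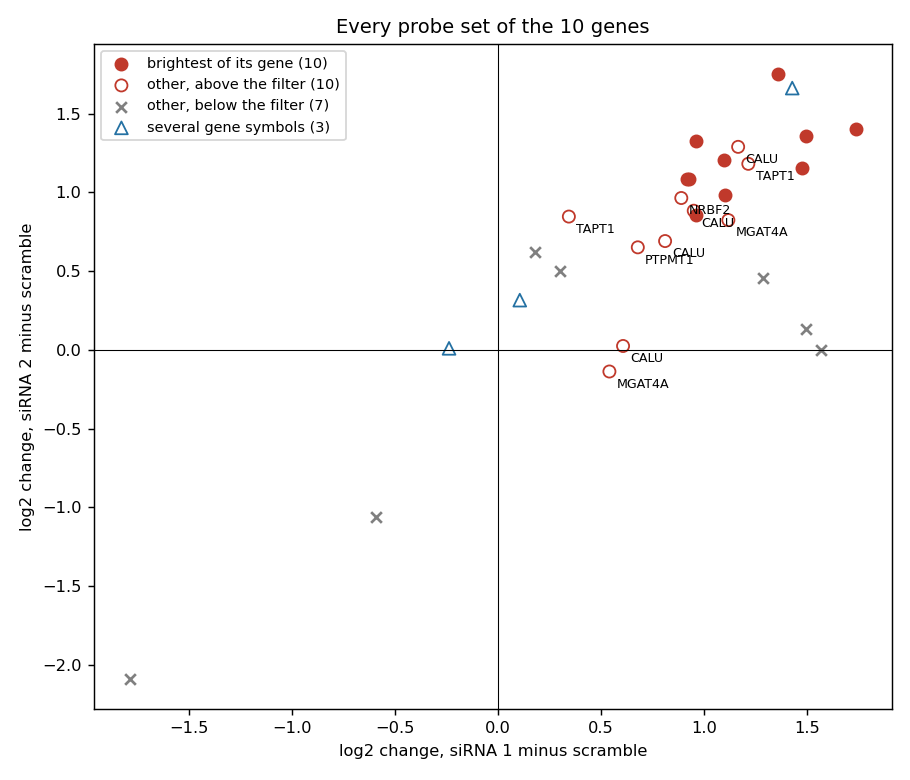
Log2 change of every probe set of the 10 genes with siRNA 1 (x axis) and siRNA 2 (y axis) against scramble. Filled circles are the brightest probe set of each gene, open circles the 10 others above the filter (labelled by gene), crosses the 7 below it, and triangles 3 probe sets with several gene symbols. Of the open circles, 9 lie above 0 on both axes and 1, for MGAT4A, lies below 0 with siRNA 2.

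The contrast of siRNA 1 with siRNA 2 asks whether the 10 genes read alike with both. The rule that chose them did not use this difference, but it used the same 4 arrays and the same estimate of spread, and so favoured genes with close duplicates. The counts below are shaped by that choice and are given as a description. Of the 10, limma called 0 in this contrast, and 0.212% of all genes tested were called. At an unadjusted p under 0.05 there were 4 of the 10, TAPT1, SUSD1, MGAT4A and PLCB1, and 18.7% of all genes tested. With siRNA 1, 5 genes were higher and 5 were lower than with siRNA 2. The duplicates of one siRNA lay wholly above those of the other in 9 of the 10, 4 with siRNA 1 above and 5 with siRNA 2 above, and in 50.7% of all genes tested.

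PLCB1 had the widest difference, a log2 difference of siRNA 1 minus siRNA 2 of -0.39 (95% confidence interval -0.70 to -0.082, adjusted p = 0.197). TAPT1 stood at -0.37 (-0.58 to -0.16, adjusted p = 0.130). On the other side were SUSD1 at 0.34 (0.11 to 0.56, adjusted p = 0.167) and MGAT4A at 0.32 (0.092 to 0.54, adjusted p = 0.173). The intervals of these 4 excluded 0 before adjustment over all genes, and only that of PLCB1 reached past a 1.5-fold difference. With an intensity trend TAPT1 had an adjusted p = 0.0299, but its difference stayed under 1.5-fold, and 0 of the 10 were called, against 2.84% of all genes tested.

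The other 6 genes had smaller differences and intervals that included 0. They were PTPMT1 at 0.14 (-0.18 to 0.46), CALU at 0.12 (-0.095 to 0.33), STMN1 at 0.11 (-0.11 to 0.32), CYP27C1 at -0.10 (-0.33 to 0.13), C12orf57 at -0.16 (-0.36 to 0.049) and NRBF2 at -0.17 (-0.39 to 0.052). Their adjusted p-values and those of the 4 genes above ran from 0.130 to 0.612.

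**Figure D3:**
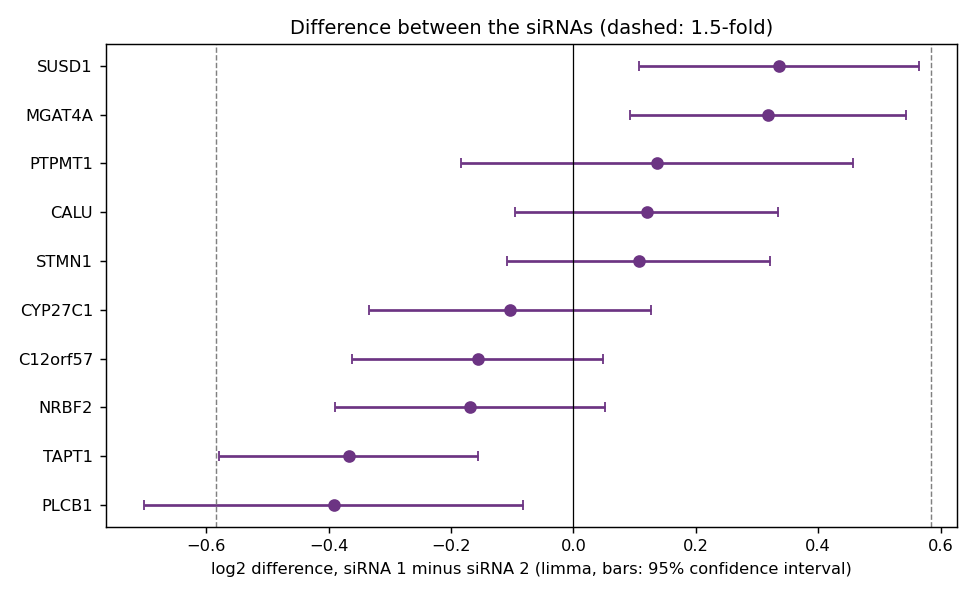
Log2 difference of siRNA 1 minus siRNA 2 for the brightest probe set of each gene, with 95% confidence intervals from limma, and dashed lines at a 1.5-fold difference. SUSD1 and MGAT4A lie above 0 and TAPT1 and PLCB1 below it with their whole intervals, and the other 6 intervals cross 0.

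To set the fall-with-scramble reading beside the same question for the other siRNAs, each group was compared with the mean of the other 2. Scramble was called lower than the mean of siRNA 1 and siRNA 2 for 49 genes (0.385% of those tested), all 10 described here among them because they were chosen so, and higher for 16 (0.126%). The group given siRNA 1 was called lower than the mean of the others for 32 genes (0.251%) and higher for 9 (0.0707%). The group given siRNA 2 was called lower for 3 (0.0236%) and higher for 0 (0.0%), while an unadjusted p under 0.05 was reached by 1227 lower and 1502 higher genes and limma with an intensity trend called 166 and 157. At an unadjusted p under 0.05 scramble had 1412 lower and 948 higher genes, and siRNA 1 had 933 lower and 1094 higher. Lower genes thus outnumbered higher ones in the scramble group by both measures, and in the siRNA 1 group among the calls but not at an unadjusted p. The 3 contrasts use the same 6 arrays, the difference between their counts was not tested, and they do not tell which group left its usual level.

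**Figure D4:**
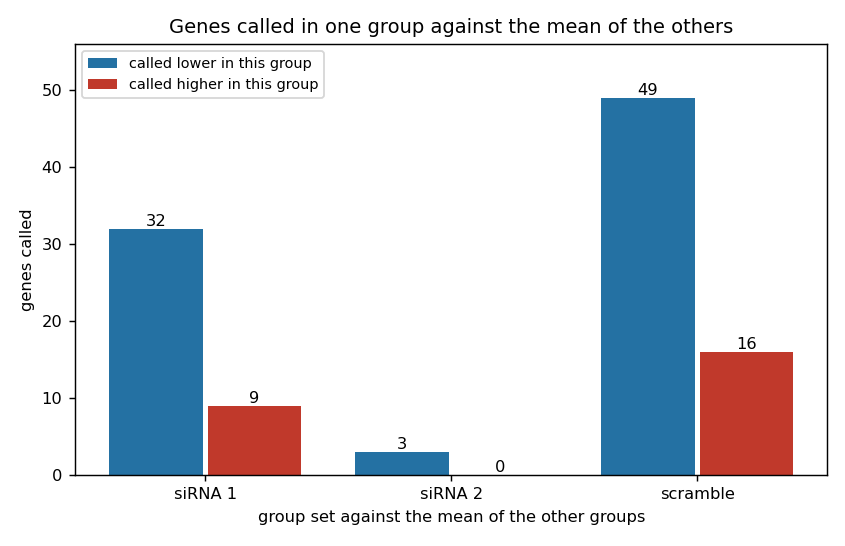
Number of genes called lower (blue) and higher (red) in each group against the mean of the other 2 groups, by limma over 12735 genes. Scramble has 49 lower and 16 higher, siRNA 1 has 32 and 9, and siRNA 2 has 3 and 0.

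Genes related to 9 of the 10, by family or by pathway, were examined as lists, written with results of these data known. C12orf57 had no list. The 9 lists held 120 tested genes besides the 10. With either siRNA limma called 0 of the 120. At an unadjusted p under 0.05, 14 (11.7%) were higher and 11 (9.17%) lower with siRNA 1, beside 9.55% and 6.65% of all genes tested. With siRNA 2 the counts were 16 (13.3%) and 13 (10.8%), beside 12.0% and 8.76% of all genes tested. The median log2 changes of the 120 were 0.0072 and -0.015, close to those of all genes. With an intensity trend 4 (3.33%) were called higher and 0 lower with siRNA 1, beside 1.37% and 0.974% of all genes tested. With siRNA 2 that setting called 7 (5.83%) higher and 2 (1.67%) lower, beside 2.29% and 1.41% of all genes tested.

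Relatives of PLCB1, MGAT4A, STMN1, CALU, CYP27C1 and SUSD1 that were tested and are named here were not called by limma with either siRNA. PLCB4, MGAT4C and CYP27A1 did not pass the filter and were not tested. CYP27A1, above the array median on 1 of 6 arrays, read 68.0 and 29.2 with siRNA 1 and 33.4 and 75.9 with siRNA 2, against 21.9 and 18.3 with scramble. PLCB3, a phospholipase C of the same subfamily, had log2 changes of -0.0024 with siRNA 1 and 0.020 with siRNA 2. PLCB2, also of that subfamily, stood at 0.99 and 0.23 on a probe set above the array median on 3 of 6 arrays, with duplicates far apart (59.5 and 199.5 with siRNA 1 and 42.6 and 96.0 with siRNA 2, against 90.6 and 32.5 with scramble). MGAT4B, which catalyses the same branching step as MGAT4A, stood at 0.29 and 0.32 (unadjusted p = 0.0128 and 0.0088 by limma). STMN3, another stathmin, stood at 0.11 and 0.13, and STMN4, above the array median on 3 of 6 arrays, at -0.40 and -0.88 (adjusted p = 0.890 and 0.693 by limma). RCN1 and RCN2, reticulocalbins of the family of CALU, stood at 0.054 and -0.11 and at -0.41 and -0.62. CYP27B1, which activates vitamin D and read near the filter level, stood at 0.25 and 0.013, SUSD6 at 0.056 and -0.44, and SUSD4, also near the filter level, at 0.35 and -0.17.

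Partners in the same pathways, picked for their roles with the values already known, were likewise not called by limma with siRNA 1 or siRNA 2 alone. PGS1 and CRLS1, the enzymes that act before and after PTPMT1 in cardiolipin synthesis, had log2 changes of -0.15 and -0.16 with siRNA 1 and of -0.10 and -0.11 with siRNA 2. CDS1, of the list built around PTPMT1, stood at 0.76 and 0.61. It was just outside the threshold with each siRNA (adjusted p = 0.0549 and 0.0556 by limma). CDS2 and TAMM41 of the same list stood at -0.092 and 0.068 with siRNA 1 and at -0.13 and 0.26 with siRNA 2. Against the mean of both siRNAs, scramble was called lower for CDS1 by limma (adjusted p = 0.0460), the 1 gene of the 120 called in that contrast. ATG14, a partner of NRBF2, stood at 0.20 and 0.13, and SUCO, a membrane protein paired with TAPT1 through its yeast relatives, at 0.14 and 0.28. Genes called with both siRNAs under the intensity trend were CDS1, MAP1B, a microtubule-associated protein (0.71 and 0.72), and PDIA4, a disulfide isomerase of the endoplasmic reticulum (1.01 and 0.76), all higher and named after their values were seen. Under the same setting TUBA1A, a tubulin (0.91), PRKCA, a protein kinase C (0.78), ULK1, the kinase that starts autophagy (0.76), and WIPI1, which binds autophagosome precursors (0.66), were called higher with siRNA 2. ITPR1, a calcium release channel (-1.41), and RCN2 were called lower with siRNA 2 and STRA6, a receptor for retinol-binding protein (0.62), higher with siRNA 1.

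**Figure D5:**
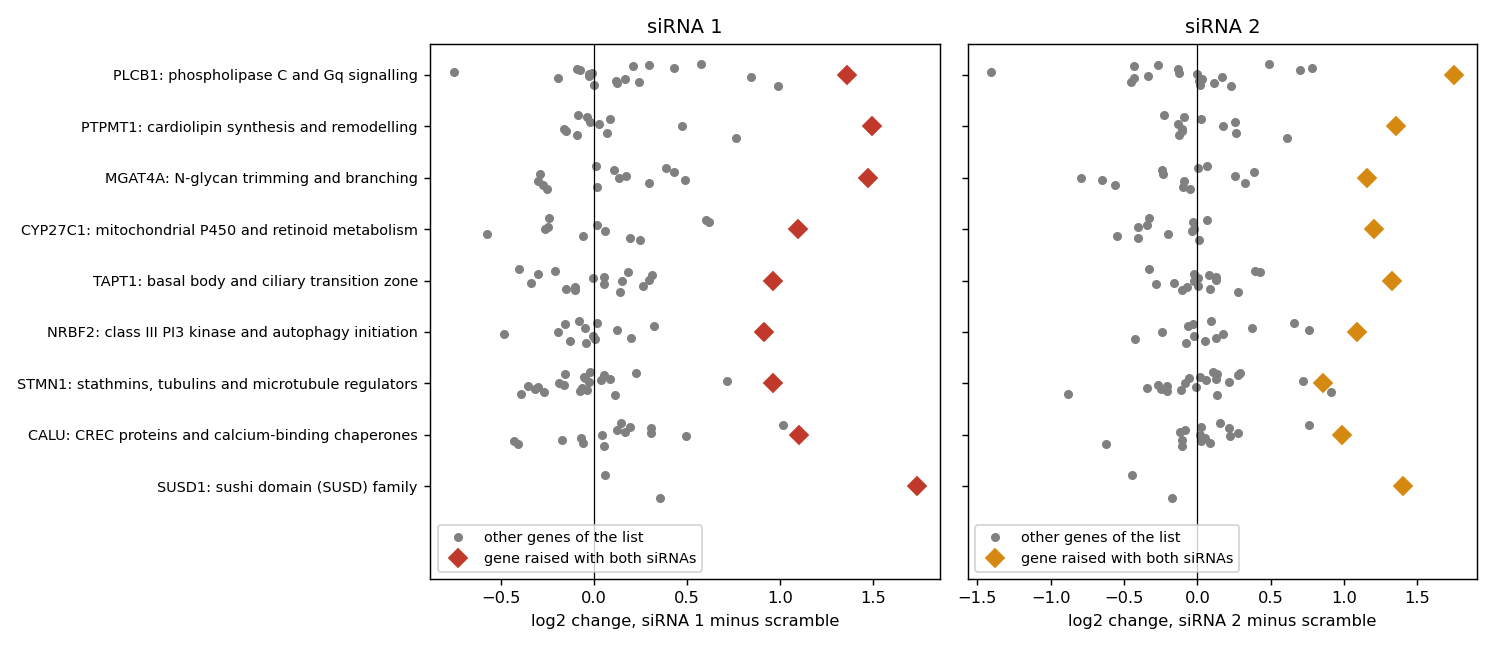
Log2 change against scramble with siRNA 1 (left) and siRNA 2 (right) for the tested genes of 9 lists, each list named with the one of the 10 genes it was built around. Diamonds are the genes raised with both siRNAs and grey points the 120 others. With siRNA 1 the diamond lies to the right of every grey point in its list. With siRNA 2 it does so in every list but that of STMN1, where TUBA1A lies further right. The choice of the 10 genes by their rise favours this place, so nothing is read from it.

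The nearest protein-coding gene on each side of each of the 10, in RefSeq order on GRCh38.p14, gave 20 neighbours, of which 14 were tested. With either siRNA limma called 0 of the 14. At an unadjusted p under 0.05, 5 (35.7%) were higher and 1 (7.14%) lower with siRNA 1, beside 9.55% and 6.65% of all genes tested. With siRNA 2 the counts were 7 (50%) higher and 0 lower, beside 12.0% and 8.76% of all genes tested. The difference between these shares was not tested. Median log2 changes were 0.070 with siRNA 1 and 0.23 with siRNA 2. Higher with both were UGCG, which lies beside SUSD1 and makes glucosylceramide (0.71 and 0.27), BIN1 beside CYP27C1 (0.48 and 0.47), CRACDL beside MGAT4A (0.52 and 0.33), TMX4 beside PLCB1 (0.43 and 0.33) and JMJD1C beside NRBF2 (0.26 and 0.38). KBTBD4 beside PTPMT1 (0.36) and UNC50 beside MGAT4A (0.29) were higher with siRNA 2, with 0.093 and 0.047 with siRNA 1, and ERCC3, on the other side of CYP27C1, was lower with siRNA 1 (-0.22 with siRNA 1 and -0.21 with siRNA 2). The rest of the tested neighbours, PTBP3 (-0.11 and -0.064), CELF1 (-0.023 and -0.011), PAQR7 (-0.057 and 0.13), PAFAH2 (-0.21 and 0.19), ATN1 (0.47 and 0.0061) and PTPN6 (-0.080 and 0.19), did not reach that level. Under the intensity trend UGCG was called higher with siRNA 1, and 0 of the 14 with siRNA 2.

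The 5 other tested genes whose signals over the 6 arrays were most like the mean standardised profile of the 10 were IFI44L, MET, BANF1, BOD1 and APPBP2, with a Pearson r of 0.997, 0.996, 0.996, 0.996 and 0.995. IFI44L, MET, BANF1 and BOD1 were themselves called with both siRNAs. APPBP2, a receptor subunit of a ubiquitin ligase, was not. It read 1538 and 1603 with siRNA 1 and 1624 and 1597 with siRNA 2, against 1051 and 1018 with scramble (log2 changes 0.60 and 0.64, adjusted p = 0.0787 and 0.0556). Between the 10 genes the r over the 6 arrays ran from 0.882 to 1.00 in 45 pairs, which the choice of genes largely fixes.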

How the data were processed

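RNA of the 6 samples was hybridised to Affymetrix arrays, and the authors deposited 1 signal intensity per probe set and array, made with Affymetrix Expression Console per the submitters' processing notes. Its version and its summary algorithm were not stated: not given in the sources used here. The deposited signals are linear and their trimmed means (2% from each end) were 500.067 to 500.07 on all arrays, so they were used as scaled. Of 54675 probe sets, 62 were controls, 41097 had 1 gene symbol in the platform annotation, 1801 several and 11721 none. The Entrez IDs of 41043 matched RefSeq, and 54 did not.

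For each of 19775 genes the brightest probe set, by mean log2(signal + 1), stood for the gene and was tested where that was above the array median (69.3 to 76.2) on at least 2 arrays, which left 12735 and removed 7040. A model with 1 coefficient per group over all 6 arrays was fitted with limma 3.58.1 in R 4.3.3 (3 residual and 1.72 prior degrees of freedom), and p-values were adjusted by Benjamini-Hochberg over the 12735 genes. The procedure was tested on simulated data with independent noise on each array. Such a test cannot show whether the calls in the real data hold. With 2 arrays a group, the number of arrays limits the precision. The correlation of log2 signals was 0.979 to 0.980 between duplicates and 0.970 to 0.978 between other pairs of arrays.

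The genes, the lists and the motifs were chosen with earlier results of these data known. Named besides the 10 genes were paralogs, list genes called in a contrast, every tested neighbour, the target and the 5 genes most alike in pattern. Other names were added after their values were seen. The alternatives were quantile normalization, centring on the median, a pseudocount of 16, no filter, an intensity trend, averaging all probe sets of a gene, the letters A and B as a block, and leaving out each array in turn. Figures were drawn with matplotlib 3.10.9.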

Additional observations from a re-analysis of the deposited data

Results flagged for a closer look

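Probe sets that carry several gene symbols enter none of the comparisons, and 1 of the 3 that name one of the 10 genes stood above scramble on all arrays. The probe set 223808_s_at, annotated to both PTPMT1 and NDUFS3, read 2125 and 2022 with siRNA 1 and 2361 and 2519 with siRNA 2, against 816 and 726 with scramble. Its log2 changes were 1.43 with siRNA 1 and 1.66 with siRNA 2. NDUFS3, a subunit of respiratory complex I, has a probe set of its own, 201740_at, which read 3699 and 3665 with siRNA 1 and 3491 and 3698 with siRNA 2, against 3250.4 and 3686 with scramble (log2 changes 0.089 and 0.054). The shared probe set thus moved nearer to 225901_at of PTPMT1 (1.49 and 1.36) than to the probe set of NDUFS3. It moved more than 229535_at, the other probe set of PTPMT1 alone (0.68 and 0.65). Which transcript the shared probe set reads was not tested.

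The other probe sets with several symbols did not separate both siRNAs from scramble. For PTPMT1 and KBTBD4, 218570_at read 953 and 933 with siRNA 1 and 1116 and 1122 with siRNA 2, against 1000.5 and 1234 with scramble. There both siRNA 1 arrays lay below the other 4 arrays. For STMN1 and MIR3917, 217714_x_at read 417 and 395 with siRNA 1 and 581 and 379.6 with siRNA 2, against 354 and 401 with scramble.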

How the results depend on the processing

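The direction of the 10 genes against scramble held under every alternative run, except STMN1 with siRNA 2 (-0.10) when all probe sets of a gene were averaged, which for STMN1 adds the dim 1552803_a_at. The calls did not hold. All 10 were called with both siRNAs with a pseudocount of 16 and with an intensity trend, 8 after quantile normalization, and 0 after centring on the median, without the filter, with the mean of probe sets, with the replicate block, or without any 1 array, although at an unadjusted p under 0.05 the count was 10 in each of these but 7 with the mean. Leaving out 1 array gave log2 changes of 0.87 to 1.79 with siRNA 1 (adjusted p = 0.114 to 0.241 by limma) and 0.80 to 1.88 with siRNA 2 (adjusted p = 0.124 to 0.196). The group left with 1 array was assumed to vary like the others. The cause of these losses was not tested.

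Counts over all genes moved too. Between siRNA 1 and siRNA 2, 27 calls became 12 after quantile normalization, 0 after centring and 362 with the trend. For siRNA 1 against scramble 50 calls became 33, 11 (5 higher, 6 lower) and 299, and for siRNA 2 76 became 162 with a pseudocount of 16, 1 (higher) after centring and 472 with the trend. Scramble against the mean of the siRNAs went to 102 calls with a pseudocount of 16, 9 (1 higher, 8 lower) after centring and 278 with the trend, against 65. The group given siRNA 1 against the others had 3 calls after quantile normalization, 0 after centring and 205 with the trend, against 41. The group given siRNA 2 had 8 after quantile normalization, 0 after centring, 8 with a pseudocount of 16 and 323 with the trend, against 3. Higher with both were 1 gene after centring and 109 with the trend, against 19. Without the filter, with the mean of probe sets, with the replicate block and without any 1 array each of these counts was 0 by limma. At an unadjusted p under 0.05, leaving out 1 array still gave 1599 to 2118 genes between the siRNAs, 1461 to 1925 with siRNA 1, 1911 to 2397 with siRNA 2 and 462 to 635 higher with both. Of the differences between the siRNAs, PLCB1 turned to 0.24 and TAPT1 to 0.28 with the mean of probe sets, and PTPMT1 to -0.013 without array A of siRNA 2 (0.29 without array B).

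Over genes, the differences of B minus A correlated at 0.038 between siRNA 1 and siRNA 2, -0.031 between siRNA 1 and scramble and 0.014 between siRNA 2 and scramble. Arrays of one letter thus showed no clear shared shift. Such a correlation cannot tell whether the letters A and B pair the samples. The block called 0 of the 10 genes (adjusted p = 0.158 with siRNA 1 and 0.129 with siRNA 2).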
